A study of Mus musculus with 8 samples.

Results

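Ahsg, Slurp1, Tmem163 and Pdzph1 were 4 of the 13619 genes tested on whole mouse genome arrays. They were selected on their array signal, as genes whose fitted signal was over 30-fold higher in EGFP cells 72 h after the start of reprogramming than in EGFP progenitors. A total of 39 genes (0.286% of those tested) met that condition, and the 4 genes are some of the 27 among them whose signal started from below background. All non-control probes of the 4 genes were taken, 5 in all: 1 each for Ahsg, Slurp1 and Pdzph1 and 2 for Tmem163. Since the genes were chosen by the change in EGFP cells, that change is given only as a description. The 30-fold condition did not use the W20 arrays, but the 4 genes were picked from among those that met it with earlier results of all 8 arrays known.

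The arrays held total RNA of N31 cells, a line of neural progenitors (NPC) made from embryonic stem cells of the mouse. The 4 groups had 2 arrays each. W20 cells 72 h after reprogramming was started and EGFP cells at the same time had received 40 ng/ml Dox throughout. Their first 48 h were in NPC medium and the last 24 h in a medium containing 10% KSR and 1000 U/ml LIF. EGF and bFGF, each at 10 ng/ml, are given for all 4 groups, W20 NPC and EGFP NPC included. W20 is named in the labels only by this code, the series title speaks of bacterial proteins, and EGFP is a fluorescent protein used here as the control. All groups come from 1 line, and the labels do not say whether the arrays of a group hold separate cultures, and the p-values therefore speak only of how far these arrays vary, which may be technical.

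The 4 genes code for unrelated proteins. Ahsg codes for fetuin-A, a glycoprotein of the cystatin superfamily that the liver secretes into blood, where it binds calcium phosphate and keeps it from precipitating. Slurp1 codes for a small secreted protein of the Ly6/uPAR family that is made by keratinocytes and acts on nicotinic acetylcholine receptors. Tmem163 codes for a membrane protein that moves zinc and was described in synaptic vesicles and endolysosomes. Pdzph1 codes for a protein named for its PDZ domain, a fold that binds the ends of partner proteins, and its pleckstrin homology domain, a fold that often binds membrane lipids.

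In the RefSeq annotation of GRCm38.p6, Ahsg lies at chr16:22892015-22899451, Slurp1 at chr15:74726644-74728023, Tmem163 at chr1:127490342-127678021 and Pdzph1 at chr17:58878808-58991375. The windows around the annotated starts of Ahsg, Tmem163 and Pdzph1 are shown, 3 of the 4 genes, since the sequence set had no window for Slurp1. Each window is 300 bases of RefSeq sequence on the gene's own strand, 250 before the start and 50 after it: chr16:22891765-22892064 (plus strand) for Ahsg, chr1:127677972-127678271 (minus strand) for Tmem163 and chr17:58991326-58991625 (minus strand) for Pdzph1. Capitals mark the matches to the 6 motifs searched.
Ahsg: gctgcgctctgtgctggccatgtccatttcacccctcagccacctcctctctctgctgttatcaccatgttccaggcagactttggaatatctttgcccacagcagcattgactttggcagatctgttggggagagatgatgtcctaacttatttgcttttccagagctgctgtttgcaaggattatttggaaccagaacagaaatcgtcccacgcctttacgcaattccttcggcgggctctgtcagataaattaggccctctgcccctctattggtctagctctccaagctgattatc
Tmem163: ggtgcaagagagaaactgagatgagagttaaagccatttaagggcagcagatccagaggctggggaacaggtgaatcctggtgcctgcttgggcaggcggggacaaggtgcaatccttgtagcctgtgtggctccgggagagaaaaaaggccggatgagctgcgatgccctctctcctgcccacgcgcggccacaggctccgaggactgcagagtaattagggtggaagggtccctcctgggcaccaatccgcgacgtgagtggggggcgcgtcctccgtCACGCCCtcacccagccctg
Pdzph1: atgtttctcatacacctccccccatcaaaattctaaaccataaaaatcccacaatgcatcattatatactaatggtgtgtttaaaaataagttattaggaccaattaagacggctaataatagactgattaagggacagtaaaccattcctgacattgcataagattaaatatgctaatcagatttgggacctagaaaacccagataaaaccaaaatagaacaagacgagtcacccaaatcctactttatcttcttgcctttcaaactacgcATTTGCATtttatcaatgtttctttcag

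The 3 windows differed in base composition. G and C made up 49.7% of the Ahsg window, 61.7% of that of Tmem163 and 33.7% of that of Pdzph1, against a median of 52.7% over 32851 windows in the same table. The motifs were searched on both strands. The octamer ATGCAAAT, the motif of Oct factors, was in the Pdzph1 window on the minus strand of the window, 22 bases after the start, and in 1.74% of all windows. The Klf core GGGNGTG was in the Tmem163 window, 30 bases after the start, and in 29.2% of all windows. None of the 3 windows held the Sox core AACAAT (10.7% of all windows), the E-box CACGTG (7.15%), the Stat element TTCNNNGAA (8.30%) or TATAAA (13.6%). These matches are letters in a window, not measured binding.

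On every array 57.0% to 62.4% of the spots were well above background by the scanner's own flag, and the 75th percentile of the signal was 829 to 940 intensity units. Replicate arrays correlated with r of 0.998 to 0.999, with a median SD between them of 0.0346 to 0.0456 log2 units. The NPC arrays lay on 1 slide scanned together and the 72 h arrays on the other, so stage and slide cannot be told apart in any comparison of 72 h with NPC. W20 and EGFP arrays shared each slide. Of 21 neural progenitor markers, Nes, which codes for nestin, and Sox2 were well above background on 8 of 8 arrays, while Olig1, Olig2 and Nr2e1 were at 0 of 8. The probe of Pou5f1, which codes for the pluripotency factor Oct4, was well above background on 0 of 8 arrays.

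Ahsg had a processed signal of 9919 and 9213 intensity units in W20 cells at 72 h and 7715 and 7598 in EGFP cells at 72 h, against 3.99 and 4.44 in W20 NPC and 3.89 and 3.67 in EGFP NPC. All 4 arrays at 72 h were far above all 4 NPC arrays, on none of which the probe was well above background. As log2 signal minus the array's 75th percentile, the level was 3.53 ± 0.0756 in W20 cells and 3.05 ± 0.0248 in EGFP cells at 72 h, against -7.69 ± 0.142 in W20 NPC and -7.86 ± 0.0458 in EGFP NPC (SD, n = 2 each).

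Slurp1 had a signal of 2079 and 1986 intensity units in W20 cells at 72 h and 1886 and 1610 in EGFP cells at 72 h, against 16.2 and 8.77 in W20 NPC and 8.72 and 11.4 in EGFP NPC. The groups at 72 h did not overlap with the NPC groups, and the W20 NPC and EGFP NPC signals overlapped. Its probe was the only one of the 5 that the scanner flagged as positive and significant on all 4 NPC arrays, although it was well above background on none of them. Its log2 level was 1.29 ± 0.0471 in W20 cells and 0.92 ± 0.121 in EGFP cells at 72 h, against -6.18 ± 0.597 in W20 NPC and -6.46 ± 0.284 in EGFP NPC (SD, n = 2 each).

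Tmem163 had a signal of 2185 and 1940 intensity units at its brighter probe, A_52_P30328, in W20 cells at 72 h and 1584 and 1480 in EGFP cells at 72 h, against 5.34 and 6.13 in W20 NPC and 5.14 and 4.92 in EGFP NPC. Stages did not overlap, and at 72 h both W20 arrays were above both EGFP arrays. The other probe of the gene, A_51_P343648, gave 13.9 and 14.2 in W20 cells at 72 h and 14.7 and 12.3 in EGFP cells at 72 h, against 4.77 and 5.44 in W20 NPC and 4.70 and 17.7 in EGFP NPC. Its signal was well above background on none of the 8 arrays, and its highest value was on an NPC array. The scanner flagged it as positive and significant on every array at 72 h. Among the NPC arrays that flag was given only to replicate 2 of EGFP NPC. With no filter on dim probes, this probe differed by 1.53 ± 0.609 log2 units between W20 cells at 72 h and W20 NPC (SE; limma, adjusted p = 0.11) and by 0.22 ± 0.609 between W20 and EGFP cells at 72 h (adjusted p = 0.805), and neither passed. The 2 probes of Tmem163 thus differed in outcome, and each value of Tmem163 below is that of the brighter probe. Among the 39 genes over 30-fold higher in EGFP cells, 13 had several probes, and 3 of their 18 other probes (of Ceacam2, Prkcb and Tmem163) were dim on all 72 h arrays.

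Pdzph1 had a signal of 665 and 610 intensity units in W20 cells at 72 h and 653 and 616 in EGFP cells at 72 h, against 3.94 and 4.32 in W20 NPC and 3.81 and 3.62 in EGFP NPC. As for the other genes, all 4 arrays at 72 h were well above background and no NPC array was. The W20 and EGFP signals at 72 h overlapped. Scaled to the 75th percentile of each array, the log2 levels were -0.32 and -0.44 in W20 cells and -0.53 and -0.55 in EGFP cells, which do not overlap.

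**Figure D1:**
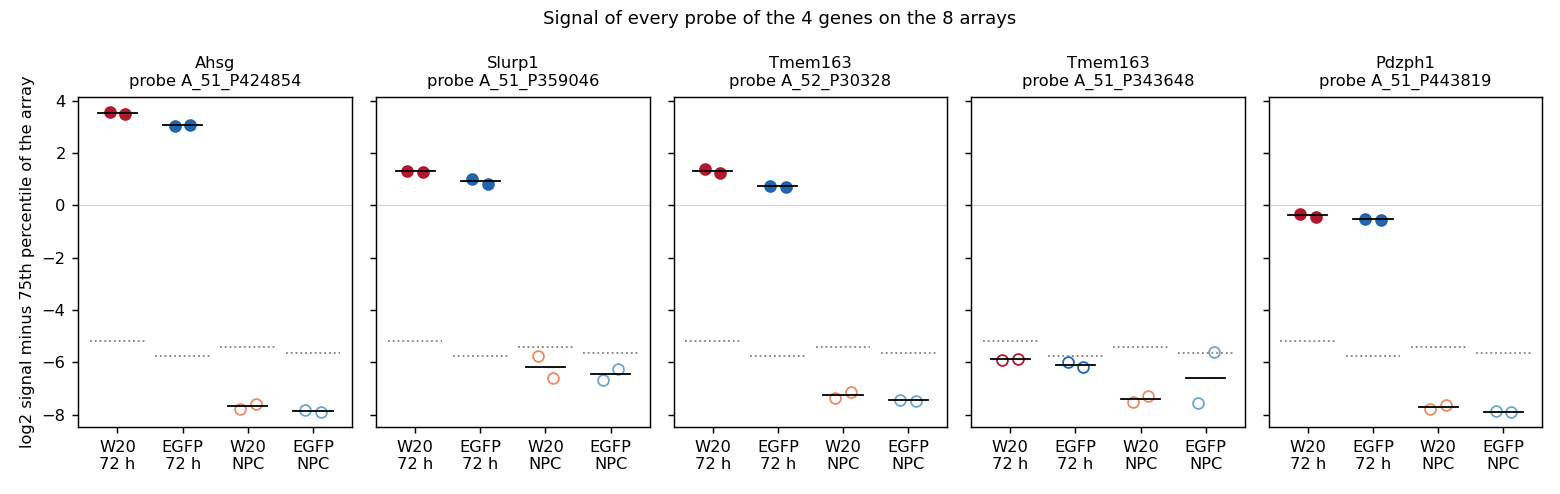
Each panel is 1 probe, and the vertical axis is the log2 signal minus the 75th percentile of the array. Points are arrays (filled where well above background), black lines are group means and dotted lines are the mean of the lowest signal well above background on the arrays of that group. All probes but A_51_P343648 of Tmem163 are filled in both groups at 72 h and open in both NPC groups.

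In W20 cells, whose arrays the 30-fold condition did not use, all 4 genes were higher at 72 h than in NPC. Since no NPC signal was well above background, each rise is a lower bound, taken against the mean of the lowest well-detected signal of the NPC arrays or the probe's own signal, whichever was higher. Ahsg was at least 498-fold higher, Tmem163 at least 107-fold, Slurp1 at least 106-fold and Pdzph1 at least 33.2-fold, and these bounds were not tested. The fitted log2 differences, which rest on NPC values below background, were tested. They were 11.21 ± 0.0753 for Ahsg (SE, n = 2 arrays a group; limma, adjusted p = 5.17e-08) and 8.56 ± 0.093 for Tmem163 (adjusted p = 1.22e-07). For Slurp1 the fitted difference was 7.48 ± 0.282 (adjusted p = 3.67e-06) and for Pdzph1 7.33 ± 0.0712 (adjusted p = 8.66e-08). Each SE takes in the spread of NPC values below background. With normexp background correction, which adds an offset of 50 and so compresses low signals, the fitted differences were 7.33, 4.88, 4.89 and 3.60 in the same order, and all passed. Over all genes, 37.4% passed as higher and 37.2% as lower in this comparison, 74.6% in either direction, so passing the threshold does not set the 4 genes apart. The 4 genes also entered the test only through their 72 h arrays, and the probe of Tmem163 was taken as the brighter over all 8 arrays, the W20 arrays at 72 h included, so these p-values are not independent of a high signal at 72 h. In bulk RNA a change in the share of cells with a transcript and a change in the transcript per cell cannot be told apart.

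In EGFP cells, the comparison that chose the genes, the same bounds were at least 412-fold for Ahsg, 93.8-fold for Slurp1, 82.4-fold for Tmem163 and 34.1-fold for Pdzph1. A share of 36.1% of all genes was called higher there and 33.8% lower, 69.9% in either direction. By fitted fold, the genes just inside the 30-fold limit were Slc2a12 (30.7-fold) and Dbx1 (31.2-fold), and those just outside were Strip2 (29.1-fold), Crhr2 (28.7-fold) and Sv2b (28.6-fold). By bound, Spink12 (at least 31.1-fold), Pdzph1 and Clic5 (at least 35.6-fold) were just inside and Vit (at least 28.6-fold) and Sox6 (at least 27.1-fold) just outside. Only 10 genes (0.0734%) were at least 30-fold higher by bound in EGFP cells, and the 4 genes were among them with Sox2ot, Helt, Nat8l, Myh2, Clic5 and Spink12.

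In W20 cells 59 genes (0.433%) were over 30-fold higher by fitted fold and 17 genes (0.125%) at least 30-fold by bound, and the 4 genes were among both. The flag of detection gave a wider set: 179 genes (1.31% of those tested) were well above background on all 4 arrays at 72 h and on no NPC array, and 67 genes (0.492%) showed the opposite pattern. Counted separately, 291 genes (2.14%) went from no detection to detection on both arrays in W20 cells and 332 (2.44%) in EGFP cells. Both counts include the 179. All 4 genes belonged to the 179.

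**Figure D2:**
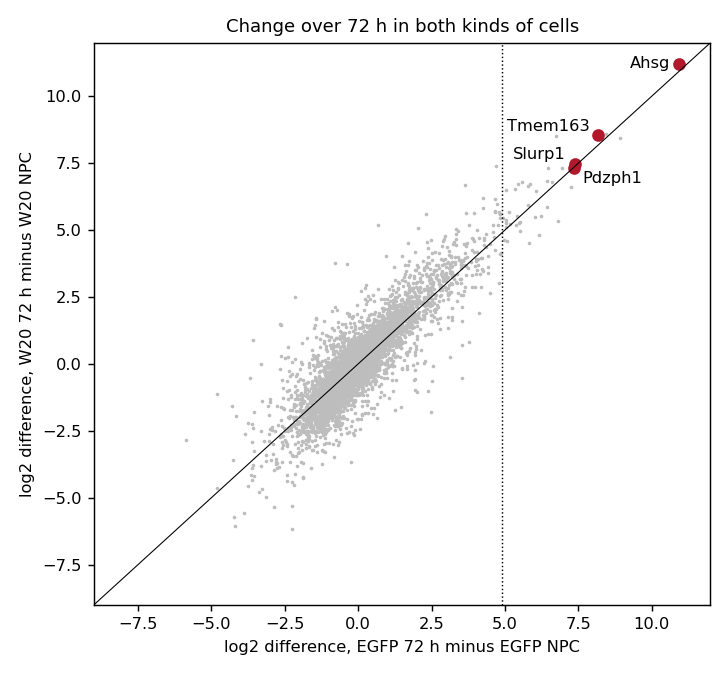
Each grey point is 1 of the 13619 genes tested, with the fitted log2 difference of 72 h from NPC in EGFP cells on the horizontal axis and in W20 cells on the vertical axis. The dotted line marks the 30-fold limit in EGFP cells, the diagonal marks equal change, and red points are the 4 genes, whose NPC values are below background. Ahsg lies at 11.21 in W20 cells and 10.92 in EGFP cells.

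At 72 h, W20 cells had more Ahsg and Tmem163 signal than EGFP cells. These values share the EGFP arrays with the choice of the genes. Ahsg was higher by 0.47 ± 0.0753 on the log2 scale (SE; 1.39-fold, 95% interval 1.22 to 1.58; limma, adjusted p = 0.00366). Tmem163 was higher by 0.58 ± 0.093 (1.49-fold, interval 1.27 to 1.75; adjusted p = 0.00376). For both genes, both W20 arrays were above both EGFP arrays. The same held for Slurp1, and for Pdzph1 on the scaled levels though not on the signal itself. This order therefore does not set Ahsg and Tmem163 apart.

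Slurp1 differed by 0.37 ± 0.282 (1.30-fold, interval 0.799 to 2.10; limma, adjusted p = 0.306) and Pdzph1 by 0.16 ± 0.0712 (1.12-fold, interval 0.988 to 1.26; adjusted p = 0.11), and neither passed. The SE of Slurp1 takes in the spread of its NPC arrays, since the 4 groups share 1 estimate. With only the 72 h groups in the fit, Slurp1 passed (limma, adjusted p = 0.0239), and with quantile normalization Pdzph1 passed (adjusted p = 0.0195). The calls for 2 of the 4 genes stand against 28.4% of all genes called higher and 24.4% called lower, 52.7% in either direction. With spike-in scaling the higher calls made up 39.6% of all calls, against 53.8% with the 75th percentile.

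**Figure D3:**
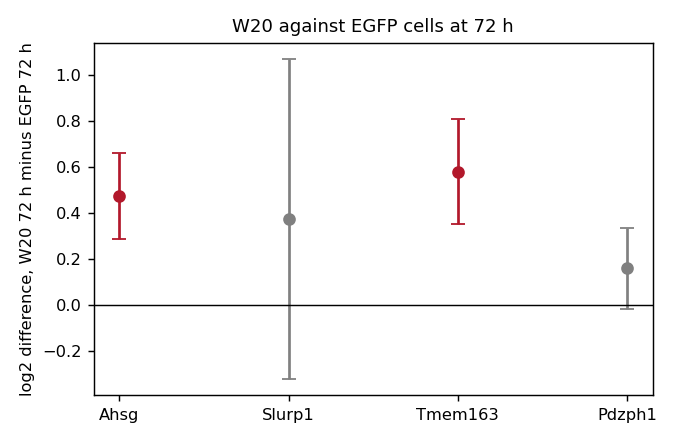
The log2 difference of W20 from EGFP cells at 72 h is plotted for each gene with its 95% interval from the fit over 8 arrays. The intervals of Ahsg and Tmem163 (red) lie above 0, and those of Slurp1 and Pdzph1 (grey) include 0.

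In NPC, W20 and EGFP cells could not be compared in fold for any of the 4 genes, because all signals were below background. None of the 4 passed, at an unadjusted p under 0.05 either (limma, adjusted p = 0.0939 for Ahsg, 0.435 for Slurp1, 0.107 for Tmem163 and 0.0845 for Pdzph1), while 31.8% of all genes passed as higher, 23.6% as lower and 55.4% in either direction. Without replicate 1 of W20 NPC, Ahsg, Tmem163 and Pdzph1 passed (adjusted p = 0.0237, 0.0297 and 0.0318), and without replicate 2 of W20 NPC Slurp1 did (adjusted p = 0.0345), all on signals below background. The difference between the changes of W20 and EGFP cells over the 72 h also rests on these NPC signals. It was 0.30 ± 0.106 for Ahsg (limma, adjusted p = 0.0867), 0.37 ± 0.131 for Tmem163 (adjusted p = 0.0831), 0.09 ± 0.399 for Slurp1 (adjusted p = 0.879) and -0.01 ± 0.101 for Pdzph1 (adjusted p = 0.926). None of the 4 passed, though Ahsg and Tmem163 had an unadjusted p under 0.05 (0.0334 and 0.0314), against 13.9% of all genes with a higher and 16.9% with a lower change in W20 cells, 30.8% in all. Without replicate 2 of W20 NPC, the difference passed for Ahsg (adjusted p = 0.0333) and Tmem163 (adjusted p = 0.036), and it passed for both with quantile normalization (adjusted p = 0.0028 and 0.0109) and with normexp background correction (adjusted p = 0.0118 and 0.0401).

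The profiles of the 4 genes over the 8 arrays were set against all other genes by the root mean square difference of log2 values, each centred on the gene's own mean. The likeness holds mostly the step between stages, which all these genes share, and the NPC values below background. Ahsg had the most distant matches of the 4: Helt, which codes for a transcription factor of midbrain GABAergic neurons, differed by 1.23 log2 units, Sox2ot, a long non-coding RNA that overlaps Sox2, by 1.31 and Tmem163 by 1.35. Tmem163 was nearest to Sox2ot (0.343) and Helt (0.344), then Pdzph1 (0.535). Pdzph1 was nearest to Sox6, a transcription factor of the SoxD group (0.191), then to Spink12, a Kazal-type protease inhibitor (0.295), and to Slurp1 (0.298). For Slurp1 the order was Pdzph1 (0.298), Sox6 (0.338) and Aldh1a1, a retinaldehyde dehydrogenase (0.425).

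These near matches differed among themselves between W20 and EGFP cells at 72 h. Sox6 was higher in W20 than in EGFP cells by 0.54 ± 0.0944 (limma, adjusted p = 0.00519) and Aldh1a1 by 0.46 ± 0.0562 (adjusted p = 0.00143). Helt was lower in W20 than in EGFP cells by 0.29 ± 0.0661 on the log2 scale (adjusted p = 0.0139) and Spink12 by 0.44 ± 0.0562 (adjusted p = 0.00166). Sox2ot gave -0.05 ± 0.179 (adjusted p = 0.829). Helt had signals of 1443 and 1342 intensity units in W20 cells at 72 h, against 1952 and 1827 in EGFP cells at 72 h, so its groups were ordered opposite to those of Tmem163.

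The genes next to the 4 genes in the genome gave no uniform picture. Of the 24 nearest protein-coding genes, 3 on each side, 22 were on the array and 15 were tested. In W20 cells 10 of the 15 were higher at 72 h and 2 lower (against 37.4% and 37.2% of all genes), with log2 differences of -1.29 to 3.82. The 10 include Nckap5, whose signals were below background in both W20 groups. Fetub, which codes for fetuin-B and lies 18931 bases beyond Ahsg, had signals of 8965 and 8807 intensity units in W20 cells at 72 h and 10304 and 10110 in EGFP cells at 72 h, against 654 and 659 in W20 NPC and 662 and 696 in EGFP NPC. It was thus well detected in NPC, where Ahsg was not, and it rose by 3.82 ± 0.042 on the log2 scale in W20 cells (limma, adjusted p = 1.22e-07). On the same side, Hrg, which codes for histidine-rich glycoprotein, rose by 0.67 ± 0.147 (adjusted p = 0.00714). On the other side of Ahsg, Tbccd1 rose by 1.27 and Dnajb11 by 0.50.

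Around Slurp1, which lies in a cluster of Ly6 genes, Them6 rose by 1.89, Lypd2 by 1.43, Lynx1 by 0.33 and Jrk by 0.18 on the log2 scale in W20 cells, and Psca, below background in NPC, was at least 2.92-fold higher. Mgat5, 2008 bases from Tmem163 in the annotation, differed by 0.21 ± 0.117 (limma, adjusted p = 0.153) and Ccnt2 by 0.17 ± 0.0946 (adjusted p = 0.161). Lypd1, Acmsd and Map3k19, the neighbours of Tmem163 that were not tested, were well above background on 0 of 8 arrays. Nckap5 was well above background on 3 of 8 arrays, all of EGFP cells. Its fitted rise in W20 cells was 1.20 ± 0.343 (limma, adjusted p = 0.0198), between signals below background. These were 13.8 and 7.02 intensity units in W20 cells at 72 h and 4.22 and 4.75 in W20 NPC. Near Pdzph1, Nudt12 fell by 0.31 and Efna5 fell by 1.29, while Fbxl17 differed by 0.07 (adjusted p = 0.0966).

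**Figure D4:**
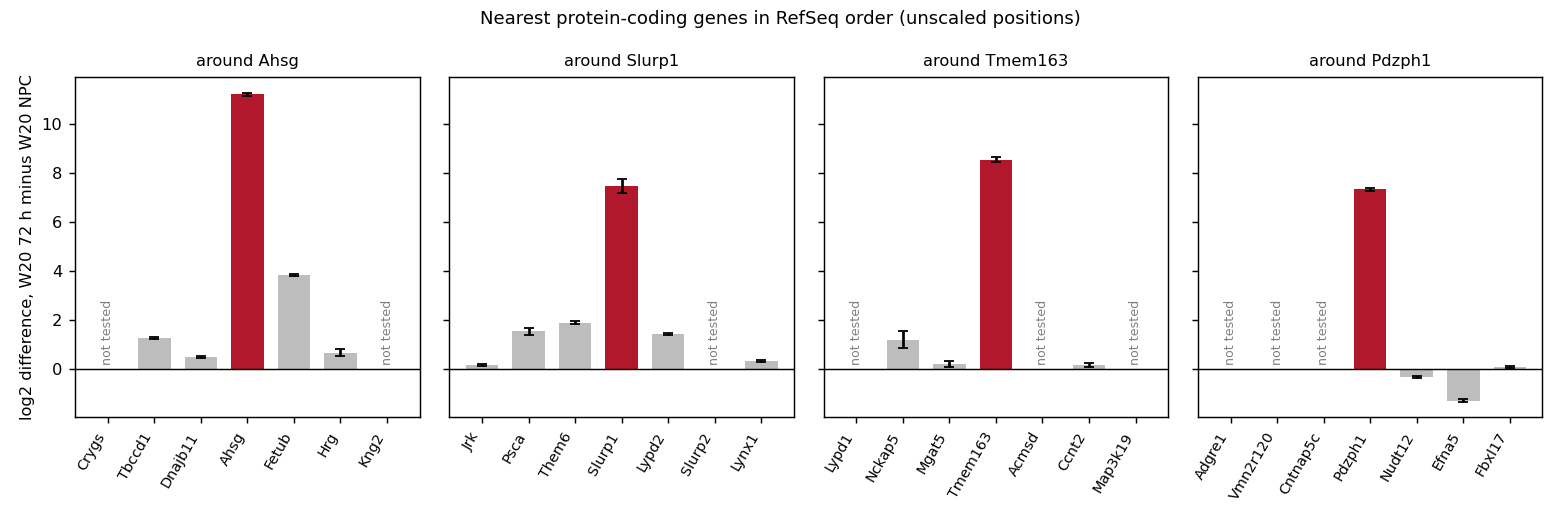
Bars are fitted log2 differences of W20 cells at 72 h from W20 NPC with their SE, for each of the 4 genes (red) and its 3 nearest protein-coding genes on each side (grey), in genome order and not to scale. Bars of genes below background in NPC, the 4 genes and Psca among them, rest on background values. Nckap5 was below background in both W20 groups. Fetub at 3.82 is the tallest grey bar.

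The gene lists that follow were compared between W20 cells at 72 h and W20 NPC, in which 37.4% of all genes passed as higher and 37.2% as lower, and each count is to be read against these shares. Relatives of Ahsg moved unevenly. Of 7 tested genes of the cystatin and fetuin family, 4 were higher at 72 h than in NPC and 2 lower, with a median log2 difference of 0.54 against 0.01 over all genes. Besides Fetub and Hrg, Kng1, which codes for a kininogen, was at least 2.62-fold higher, while Cst6, which codes for a cysteine protease inhibitor of skin, fell by 2.99 and Cstb, which codes for cystatin B, fell by 0.96. Of 10 tested regulators of calcification, 5 were higher and 4 lower (median 0.17), against 37.4% and 37.2% of all genes. Bglap, which codes for osteocalcin, rose by 2.23 and Alpl, which codes for a phosphatase that promotes mineral formation, was at least 3.83-fold higher, whereas Spp1, which codes for osteopontin, fell by 1.83 and Ank, which takes part in pyrophosphate export, fell by 0.94.

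Hepatocytes are the cells that make most fetuin-A. Of 33 hepatocyte genes on the array, 11 were well above background on 0 of 8 arrays, among them Ttr, Apoa1, Apoa2, Fga, Fgb and Plg, and Alb, which codes for albumin, was well above background on 2 of 8. In W20 cells 3 of 16 tested were higher at 72 h and 8 lower (median -0.46), against 37.4% and 37.2% of all genes. Of the 8 lower genes, 7 were well above background on both W20 NPC arrays. F2, which codes for prothrombin, was at least 2.32-fold higher and Hp, which codes for haptoglobin, at least 4.29-fold, while Afp, which codes for alpha-fetoprotein, fell by 1.56. The summed signal of the list, in units of each array's 75th percentile, was 3.79 to 3.88 in W20 cells and 4.89 to 4.99 in EGFP cells at 72 h, against 5.36 to 5.37 in W20 NPC and 6.94 to 7.41 in EGFP NPC. Apoc1 was the largest part of this sum, which thus follows Apoc1 more than any other gene of the list. Its signals were 1359 and 1370 intensity units in W20 cells and 2842 and 2696 in EGFP cells at 72 h, against 2429 and 2276 in W20 NPC and 3906 and 4257 in EGFP NPC.

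Of 24 tested relatives of Slurp1 in the Ly6 and uPAR family, 14 were higher in W20 cells at 72 h and 3 lower (median 0.33), against 37.4% and 37.2% of all genes. Ly6g6e was at least 23.1-fold higher and Ly6d at least 4.61-fold, both from below background, and Ly6a, which codes for Sca-1, rose by 3.58 on the log2 scale. Plaur, which codes for the urokinase receptor, fell by 1.34 and Cd59b, which codes for a complement inhibitor, fell by 0.79. Among the nicotinic acetylcholine receptor subunits, 8 of 16 were well above background on 0 of 8 arrays, and 3 of 4 tested were lower in W20 cells at 72 h (37.2% of all genes), the fourth being Chrnd at 0.32 (limma, adjusted p = 0.0562). Chrnb1, a subunit of the muscle receptor, fell by 3.09 and Chrng fell by 1.09.

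Keratinocytes are the cells known for Slurp1. Of their genes, 12 of 23 tested were higher in W20 cells at 72 h and 3 lower (median 0.62), against 37.4% and 37.2% of all genes. Krt14, a keratin of basal epidermis, rose by 4.00 and Krt16, a keratin of activated epidermis, by 3.70, while Krt5, the partner of Krt14, differed by 0.34 (limma, adjusted p = 0.171). Ppl, which codes for periplakin, fell by 1.44 and Krt15 fell by 0.88. Krt1, Krt4, Trp63, Sprr3, Dsg1a, Dsg3 and Klk5 were well above background on 0 of 8 arrays. The summed signal of the list was 142 to 150 in W20 cells and 133 to 135 in EGFP cells at 72 h, against 121 to 125 in W20 NPC and 113 to 114 in EGFP NPC. Most of each sum came from Sprr2a1, with signals of 85343 to 94110 intensity units over the 8 arrays, so the sum says little of the other genes. The part of such cells in the Slurp1 signal was not tested.

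The zinc transporters and metallothioneins, set beside Tmem163, moved both ways: 11 of 25 tested were higher in W20 cells at 72 h and 9 lower (median 0.10), near the 37.4% and 37.2% of all genes. Slc39a10, which brings zinc into the cytoplasm, rose by 1.19 and Slc39a11 by 0.72. Slc30a2, which moves zinc into vesicles, was at least 1.32-fold lower and Slc39a8, a zinc and manganese importer, fell by 1.40. Of 13 tested genes of synaptic vesicle proteins, 6 were higher and 4 lower (median 0.28), also near these shares. Sv2b, which codes for a vesicle glycoprotein, was at least 9.9-fold higher and Syt1, the calcium sensor of release, rose by 3.50. Stx1a, which codes for a syntaxin of the plasma membrane, fell by 1.33 and Sv2a fell by 1.05.

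Of 13 neuron markers on the array, 9 were tested, and Snap25 and Nefm were well above background on 0 of 8 arrays. In W20 cells 8 of the 9 rose at 72 h, against 37.4% of all genes, 7 of them well above background on both W20 arrays at 72 h. Rbfox3 gave -0.13 (limma, adjusted p = 0.429), and the median of the list was 1.73. Stmn2, which codes for a microtubule regulator of growing neurites, rose by 3.38. The summed signal of the list was 11.5 to 12.1 in W20 cells and 9.33 to 9.52 in EGFP cells at 72 h, against 2.56 to 2.70 in W20 NPC and 2.55 to 2.66 in EGFP NPC. Tmem163 had the same order of groups at 72 h. The summed signals of the Ly6, PDZ, keratinocyte, zinc, calcification, nicotinic receptor, pluripotency and LIF lists also had this order at 72 h. Those of the hepatocyte, cystatin and fetuin, astrocyte, fibroblast, endothelium, and endoderm and trophectoderm lists had the opposite order. In the remaining lists the W20 and EGFP sums at 72 h overlapped. The part of neurons in the Tmem163 signal was not tested.

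PDZ scaffold genes, set beside Pdzph1, moved both ways: 13 of 29 tested were higher in W20 cells at 72 h and 14 lower (median 0.01), against 37.4% and 37.2% of all genes. Of the 13 higher genes, 12 were well above background on both W20 arrays at 72 h. Lin7a, which codes for a polarity and synapse scaffold, was at least 95.9-fold higher in W20 cells. It had signals of 1892 and 1791 intensity units in W20 cells at 72 h and 1789 and 1701 in EGFP cells at 72 h, against 15.6 and 8.56 in W20 NPC and 59.1 and 68.6 in EGFP NPC, so that, unlike Pdzph1, it was detected in EGFP NPC. Shank3, a scaffold of excitatory synapses, fell by 2.00 and Grip1, which binds glutamate receptors, fell by 1.29.

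**Figure D5:**
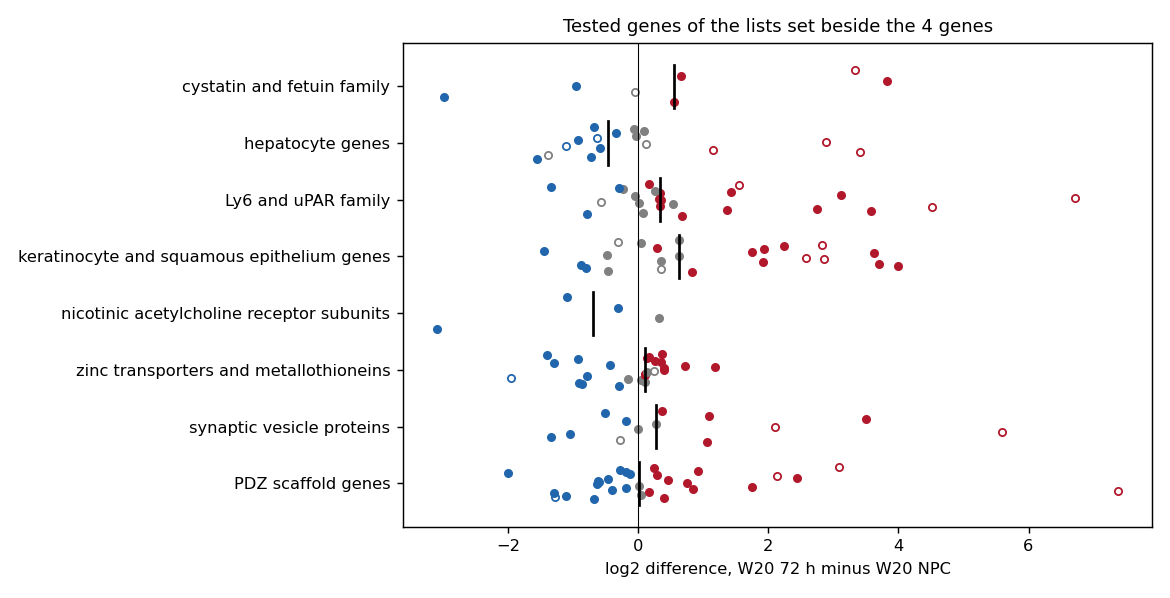
Each point is 1 tested gene of 1 of the 8 lists drawn, placed by its fitted log2 difference of W20 cells at 72 h from W20 NPC; red points passed as higher, blue points as lower and grey points did not pass, and open points were below background on both arrays of at least 1 of these groups. Black bars are list medians, which run from -0.70 (nicotinic receptor subunits) to 0.62 (keratinocyte genes) over these lists, and the neuron markers and other lists are not drawn.

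Genes tied to reprogramming and to the medium gave mixed counts in W20 cells, again to be read against 37.4% of all genes higher and 37.2% lower. Of 18 tested genes of the reprogramming factors and pluripotency network, 6 were higher at 72 h and 7 lower, with Myc, a proto-oncogene and reprogramming factor, up by 3.71 and Esrrb, a nuclear receptor of embryonic stem cells, at least 4.61-fold lower. Of 14 tested LIF and STAT3 targets, 8 were higher and 4 lower. Of 17 tested neural progenitor markers, 8 were higher and 6 lower, and Sox9, a factor of neural stem cells, fell by 3.97. Of the tested markers of other cells, 3 of 8 for astrocytes were higher and 4 lower, and 4 of 14 for fibroblasts higher and 7 lower. For endothelium 2 of 4 were higher and 1 lower, and for endoderm and trophectoderm 1 of 12 higher and 6 lower. Of immune cell markers 1 of 3 was lower, and of P2X receptors 2 of 6. Neither of these 2 P2X receptors was well above background on both W20 NPC arrays. Detection on both W20 arrays at 72 h held for 7 of the 8 higher neural progenitor markers. It held for 2 of the 3 higher astrocyte markers and 1 of the 2 higher endothelial markers. Ptprc of blood cells and Pecam1 of endothelium were well above background on 0 of 8 arrays.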

How the data were processed

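Total RNA of 8 samples was labelled with Cy3 and hybridised to 1-colour arrays. Per the file headers, the deposited spot intensity values are linear processed signals, already corrected for background by Agilent Feature Extraction (version 10.7.3.1). The deposited value table holds the authors' log2 values, with centring unstated. Its column medians were -3.78 and -3.73 (EGFP NPC), -3.82 and -3.78 (W20 NPC), -3.77 and -3.88 (EGFP 72 h), and -3.83 and -3.91 (W20 72 h). The NPC columns matched their own arrays. The columns named for replicate 1 at 72 h equalled the mean of the NPC columns, and the table was used for no comparison but W20 NPC with EGFP NPC, as an alternative.

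Control and outlier spots were left out, log2 signals were reduced by each array's 75th percentile, and accessions were matched to RefSeq symbols (27584 of 41174 probes). Each gene is its brightest probe over 8 arrays, kept if the scanner flagged it well above background on every array of some group. In R 4.3.3, limma 3.58.1 fitted the 4 group means (functions lmFit and eBayes), and p-values, two-sided, were adjusted by Benjamini-Hochberg over 13619 genes, with a threshold of 0.05. The procedure was tested on simulated data. The 4 genes and the 19 gene lists were chosen with earlier results of these data known. Named genes are the 4 genes, their 3 nearest profiles, the genes beside the 30-fold limit, 3 neighbours on each side, and up to 2 of the largest rises and falls of a list, with further ones, such as Ly6a, Chrnd and Rbfox3, chosen after their values were seen. The files have no mean spot signal, so the normexp alternative used the median spot signal with the local background and an offset of 50. The other alternatives were normalization, filters, choice of probe, spread, a replicate block and leaving out each array. The number of arrays limits the precision.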

Additional observations from a re-analysis of the deposited data

How the results depend on the processing

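The higher signal of all 4 genes in W20 cells at 72 h against NPC passed in each of the 20 alternatives that tested them; requiring detection on all 8 arrays left them untested. For Tmem163 these alternatives all used its brighter probe, since the other was dimmer or removed by the filter, and the other probe, tested without a filter, did not pass (limma, adjusted p = 0.11 for W20 at 72 h against NPC and 0.805 for W20 against EGFP at 72 h). The fitted size did depend on the background correction: with normexp the changes in EGFP cells were 6.61 (Ahsg), 4.40 (Slurp1), 4.04 (Tmem163) and 3.20 (Pdzph1) log2 units. Ahsg (adjusted p from 0.000409 to 0.0255) and Tmem163 (0.000738 to 0.0326) (brighter probe) stayed higher in W20 than in EGFP cells at 72 h in 20 alternatives. Signs on signals below background turned. In NPC the W20 difference was -0.0068 (quantile) and -0.23 (normexp) for Ahsg, -0.011 and -0.25 for Pdzph1, -0.29 (normexp) for Tmem163, and -0.12 (normexp) for Slurp1, for which leaving out 1 array gave -0.14 to 0.70. The difference of the changes was -0.33 to 0.52 for Slurp1 when 1 array was left out, and negative without replicate 2 of EGFP NPC (-0.11) or of W20 NPC (-0.33). For Pdzph1 it turned to 0.19 (quantile) and 0.40 (normexp), and was -0.10 to 0.0735 when 1 array was left out, positive without replicate 2 of EGFP NPC, W20 NPC or W20 at 72 h. The cause was not tested. With every probe tested on its own, which tests more features, calls numbered 17938 (10162 by gene) for W20 at 72 h against NPC, 16305 (9518) for EGFP, 10910 (7182) for W20 against EGFP at 72 h and 11780 (7549) in NPC. Spike-in scaling gave 4147 for W20 against EGFP at 72 h, 4700 in NPC and 1899 for the difference of the changes (4200 with the 75th percentile), for which median scaling gave 2794. Leaving out 1 array gave 9235 to 9995 calls, 8410 to 9549, 5522 to 6777, 5621 to 7538 and 2837 to 3434 in the same 5 comparisons. The labels do not say whether replicate numbers pair the arrays. Over the probes well above background on all 8 arrays, deviations of same-numbered arrays correlated at 0.223 to 0.255 among EGFP NPC, EGFP 72 h and W20 72 h. For the pairs with W20 NPC they correlated at -0.142 to -0.0501, so these values do not settle the pairing. With the replicate block the counts were 10179, 9533, 7131, 7542 and 3999. The slide block was not run, since slide and stage are the same split. Leaving out an array leaves 1 in its group, which is assumed to vary like the others.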
